A study of Mus musculus with 12 samples.

Results

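The comparison described here is between untreated B lymphocytes of Tmem173-/- mice and untreated B lymphocytes of wild type mice, that is, the effect of the genotype before any agonist was given. Its members were chosen by their labels, as the 3 Tmem173-/- control libraries and the 3 wild type control libraries of a series of 12, and every gene that passed a low-count filter was examined, which left 14473 of 54532 listed genes. B cells had been sorted from 3 mice of each genotype and seeded in 96-well plates, and the other 6 libraries came from cells given the STING agonist 3'3'-cGAMP for 12 hours. Messenger RNA was sequenced after poly-A selection. The labels give neither the kind of Tmem173-/- allele nor the strain, age, sex or organ of the mice, and no vehicle or culture time is stated for the control cells. They do not say whether control and cGAMP libraries of the same number came from 1 mouse, nor whether the libraries of a group came from separate animals, so p-values measure the spread between these libraries.

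Tmem173 encodes STING, a receptor of the endoplasmic reticulum that binds cyclic dinucleotides. The enzyme cGAS makes such a dinucleotide when it meets DNA in the cytosol, and STING then recruits the kinase TBK1, which activates the transcription factor IRF3 and the production of type I interferon. Secreted interferon acts through IFNAR1 and IFNAR2, JAK kinases and transcription factors that bind interferon-stimulated response elements and raise a large set of antiviral genes. Many unstimulated immune cells hold these genes at a low, tonic level.

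The 6 control libraries held 26490593 to 31417833 counts, and 18556 to 19405 genes had at least 1 count. Expression is given below in CPM, a count scaled to library size after TMM normalization, and is compared within a gene only, since CPM does not account for gene length. All 7 B cell markers were abundant in all 6 libraries: Ms4a1 (CD20) lay between 717 and 959 CPM, and Ighm between 3189 and 3287 CPM. Transcripts of Xist were present in all 6 libraries, the Y-linked genes Ddx3y, Uty and Kdm5d had 0 counts in each, and Eif2s3y had 1 count in 1 library.

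Each wild type control library stood apart in its own way. Wild type control 1 held T cell and neutrophil transcripts: it was the highest of the 6 libraries in 10 of 12 tested T cell markers, against 13.7% of all tested genes. Counts of Cd3e, a subunit of the T cell receptor complex, were 25, 0 and 1 in wild type controls 1 to 3 and 2, 0 and 1 in Tmem173-/- controls 1 to 3. Counts of S100a9, an abundant neutrophil protein, were 107, 0 and 0 in the wild type and 0, 0 and 10 in the Tmem173-/- libraries. The summed level of the 12 neutrophil markers was 9.94 CPM in wild type control 1 and between 0.0327 and 0.657 CPM in the other 5 libraries. Elane and Ly6g had 0 counts in all 6. The summed level of the 17 T cell markers overlapped, at 250 to 274 CPM in the wild type and 205 to 251 CPM in the Tmem173-/- libraries, most of it Lck, and their median log2 difference was -0.64, or 0.77 without wild type control 1.

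Wild type control 2 lacked a distinct group of transcripts. In 17 genes with a median of at least 5 CPM it lay more than 4-fold below each of the other 11 libraries of the series, and the other 11 libraries together had 1 such gene. The 17 included all 8 tested genes named Rrp, whose products process ribosomal RNA, namely Rrp1, Rrp1b, Rrp7a, Rrp8, Rrp9, Rrp12, Rrp15 and Rrp36. They also included Exosc5 (a subunit of the RNA exosome), the mitochondrial ribosomal RNAs mt-Rnr1 and mt-Rnr2, the ribosomal protein gene Rpl12 and the chaperone gene Hsp90aa1. Rrp12 was at 113, 2.50 and 102 CPM for wild type controls 1 to 3 and at 109, 80.0 and 92.2 CPM in the Tmem173-/- controls. Hsp90aa1 was at 869, 13.4 and 969 CPM in the wild type and at 839, 663 and 677 CPM in the Tmem173-/- controls. In this library the small nuclear RNA Rn7sk, at 194 CPM, was instead more than 4-fold above every other library. Differences between the genotypes in these genes rest on that library, and none is read as an effect of genotype here; whether this library was processed differently before deposit was not tested. These genes were singled out after their values had been seen.

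Wild type control 3 was the highest of the 6 libraries in 28.2% of all tested genes and lay farthest from the others on the first principal component of the control libraries, at -24.9 against -9.64 to 18.4 (42.2% of the variance). It also had the highest level of most interferon-stimulated genes, as described below. Results are therefore given with and without these libraries where they rest on them.

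Tmem173 itself was counted alike in both genotypes. The gene lies on chromosome 18 at 35733678 to 35740554 of GRCm38, minus strand. Wild type controls 1 to 3 held 91.2, 102 and 92.7 CPM of it and Tmem173-/- controls 1 to 3 held 80.2, 94.7 and 103 CPM. The groups overlapped, and the log2 difference (Tmem173-/- minus wild type, as throughout) was -0.04 ± 0.10 (SE, n = 3 per genotype; edgeR adjusted p = 0.935). Its sign was positive without wild type control 2 (0.01) and without Tmem173-/- control 1 (0.06). Counts over the whole gene do not show whether a transcript makes functional protein, so this level does not check the genotype labels. After cGAMP the same gene was at 44.7, 49.2 and 48.0 CPM in wild type cells and at 82.9, 101 and 95.9 CPM in Tmem173-/- cells.

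No gene passed the test in untreated cells. At the adjusted threshold of 0.05 the edgeR quasi-likelihood test called 0 genes in either direction (0% of 14473), and the smallest adjusted p was 0.728. At an unadjusted p under 0.05 it gave 286 genes higher in Tmem173-/- cells (1.98%) and 635 lower (4.39%). The groups of 3 libraries did not overlap in 725 genes that were higher (5.01%) and 590 that were lower (4.08%). limma-voom also called 0 genes, and DESeq2 called 4 higher and 0 lower. Without a filter on low counts edgeR called 32 higher and 119 lower genes. In that fit the median prior degrees of freedom was infinite, against 8.06 with the filter. For a typical gene the spread was thus shared among genes and not its own. The calls included genes low in wild type control 2 alone, such as Rrp12 and mt-Rnr2.

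**Figure D1:**
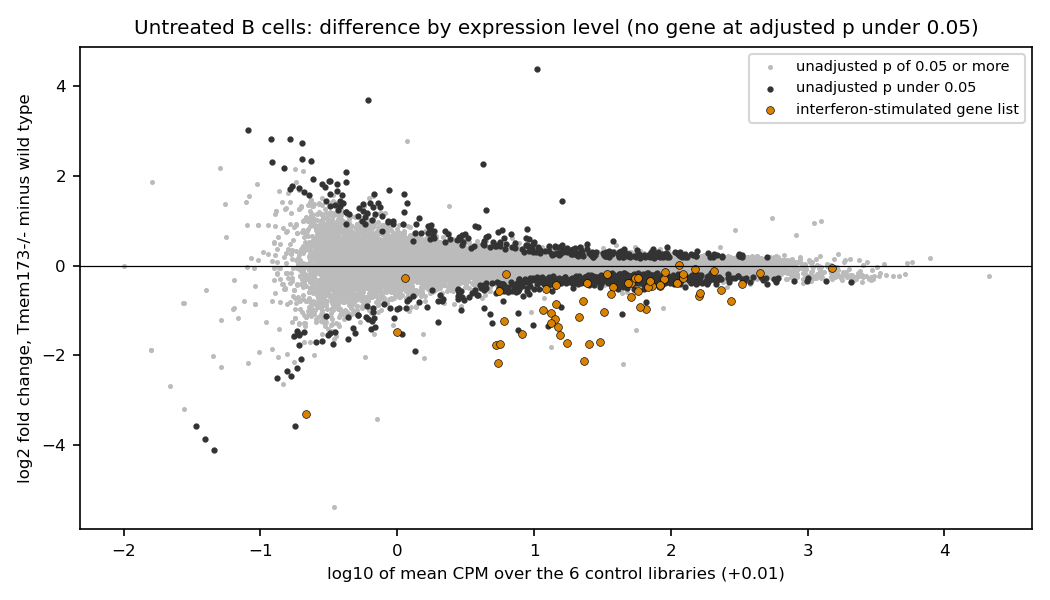
Log2 difference between Tmem173-/- and wild type control libraries (y axis) against log10 of mean CPM plus 0.01 (x axis) for the 14473 tested genes. Interferon-stimulated genes lie below 0 in 57 of 58 cases, and none of the genes passed an adjusted p under 0.05.

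The data bound the size of most differences. In limma-voom, the 95% interval of the log2 difference lay within 2-fold in both directions for 10994 of 14473 genes (76.0%). Among 9467 genes with a mean of at least 5 CPM it did so for 9355 (98.8%), and it lay within 1.5-fold for 8480 (89.6%). Below 1 CPM the median half-width was 1.19 on the log2 scale, so that a doubling was not detectable in a typical gene of that level, whereas above 100 CPM it was 0.20. In 28 genes with a mean of at least 5 CPM over the 6 control libraries the difference reached 2-fold, 3 higher and 25 lower in Tmem173-/- cells. Of the 25 lower genes (0.264% of those at that level), 16 were on the list of interferon-stimulated genes, of which 55 reached that level. Without wild type control 3, described above, 1 of these 16 (Oas2, at -1.03) was still 2-fold lower. The lower genes outside the list were Isg20 (-1.34), Slfn1 (-1.42), Ifit1bl1 (-1.33), Sdc3, BC147527, Rn7sk, Ctnna1, Ighg2c and Ighv2-3. Of these, Rn7sk rests on wild type control 2, as given above.

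Of the pathway lists examined, interferon-stimulated genes had the median farthest from 0. Of 58 genes on the list, all tested, 57 had a lower mean in Tmem173-/- cells, against 51.3% of all tested genes, and 39 of the 58 were lower at an unadjusted p under 0.05, against 4.39%. The median log2 difference was -0.57, against -0.01 over all tested genes. In 16 of the 58 all 3 Tmem173-/- libraries lay below all 3 wild type libraries, against 4.08%. None passed the adjusted threshold. In bulk RNA, fewer cells expressing a gene and less RNA per cell cannot be told apart.

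The list varied among the wild type libraries more than among the Tmem173-/- libraries. Its mean log2(CPM + 1) was 4.87, 5.33 and 5.93 in wild type controls 1 to 3 and 4.56, 4.78 and 4.98 in Tmem173-/- controls 1 to 3. Wild type control 1 thus lay between Tmem173-/- controls 2 and 3, and the groups overlapped. Wild type control 3 was the highest of the 6 libraries in 48 of the 58 genes. Wild type controls 2 and 3 each lay above all 3 Tmem173-/- libraries in 54 of the 58 genes, where 22.9% and 34.4% of all tested genes did so. Wild type control 1 did so in 17, where 24.1% of all tested genes did. The median standard deviation of these genes on that log2 scale was 0.45 among wild type controls and 0.22 among Tmem173-/- controls, compared with 0.16 and 0.14 over all tested genes.

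**Figure D2:**
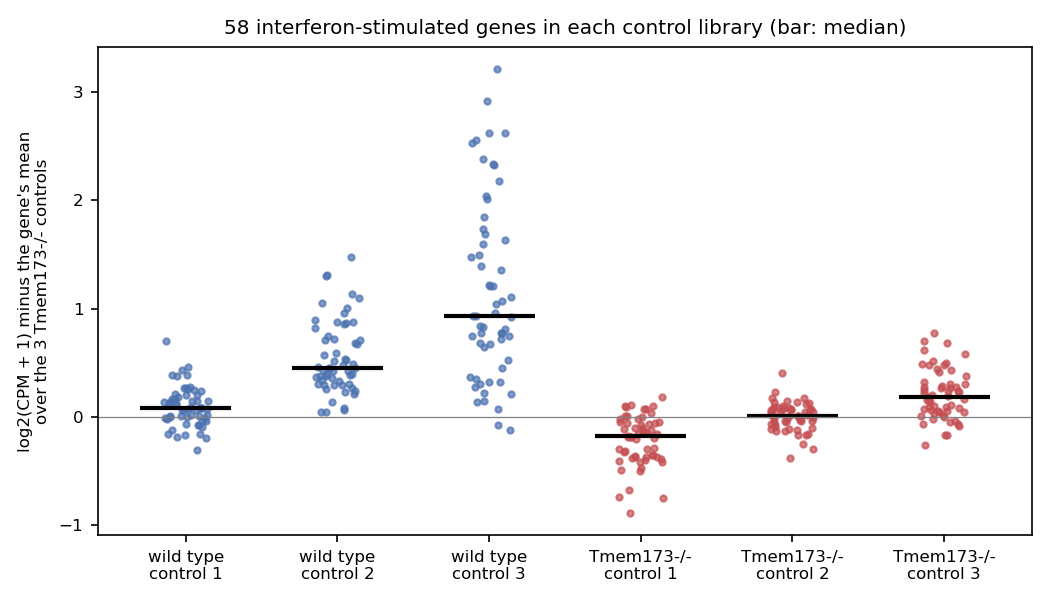
Log2(CPM + 1) of each of 58 interferon-stimulated genes in the 6 control libraries, less that gene's mean over the 3 Tmem173-/- controls (points, y axis; bars are medians). Wild type controls 2 and 3 lie mostly above all Tmem173-/- controls, and wild type control 1 lies among them.

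The list had the same direction without wild type control 3, at a smaller size. Without that library the median difference was -0.32 and 58 of 58 genes were lower, against 53% of all genes tested in that fit. At an unadjusted p under 0.05, 22 of the list were lower, against 178 of all 14929 genes. Without wild type control 1 the median was -0.77 and 48 genes were lower at an unadjusted p under 0.05. In that fit 1243 of all 14907 genes had such a p in either direction. Of the 48, Oas1a passed the adjusted threshold (log2 difference -1.37, edgeR adjusted p = 0.0477). Without Tmem173-/- control 1 the median was -0.46. There 20 genes of the list were lower at an unadjusted p under 0.05, against 1453 of all 14924 genes.

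Among the antiviral effectors, Isg15, a ubiquitin-like modifier, was at 16.1, 24.3 and 76.5 CPM for wild type controls 1 to 3 and at 12.6, 10.3 and 12.0 CPM in Tmem173-/- controls 1 to 3. The groups did not overlap, and wild type control 3 was more than 3 times as high as any other library. The log2 difference was -1.74 ± 0.54 (SE), or -0.80 without wild type control 3. Bst2, which tethers budding virus to the cell surface, was at 58.9, 64.3 and 141 CPM in the wild type and at 51.1, 41.0 and 42.8 CPM in the Tmem173-/- controls. These groups did not overlap either, with a log2 difference of -0.97 ± 0.29, or -0.46 without wild type control 3.

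Oas1a, one of the synthetases that make the activator of RNase L, was at 9.58, 16.3 and 28.0 CPM in the wild type and at 8.31, 8.26 and 9.23 CPM in the Tmem173-/- controls. All wild type libraries lay above all Tmem173-/- libraries, wild type control 1 by the least. Ifit3, which binds foreign RNA together with other IFIT proteins, was at 8.16, 21.8 and 83.8 CPM in the wild type and at 5.92, 6.48 and 13.9 CPM in the Tmem173-/- controls. Here the groups overlapped, as wild type control 1 lay below Tmem173-/- control 3. Rsad2 (viperin, an antiviral radical enzyme) was at 3.28, 5.38 and 15.6 CPM against 1.47, 2.25 and 3.43 CPM, with the same single overlap. Without wild type control 3 the log2 differences were -0.60 for Oas1a, -0.78 for Ifit3 and -0.88 for Rsad2, compared with -1.06, -2.12 and -1.78 with it. Ifit3 and Ifit3b, the Oas genes and the Trim30 genes have close paralogs, and their counts are uncertain where reads could be shared.

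Genes of the interferon response machinery differed in size of effect. Stat2, a signal transducer of the type I interferon receptor, was the 1 gene of the list with a log2 difference above 0, at 0.02 ± 0.14, and its groups overlapped. Irf9, its DNA-binding partner, had -0.27 ± 0.10. Irf7, which amplifies interferon production, was at 15.2, 35.2 and 89.3 CPM in the wild type and at 9.42, 13.5 and 19.99 CPM in the Tmem173-/- controls, so that wild type control 1 lay within the Tmem173-/- range. The feedback inhibitor Usp18 showed the same arrangement, with a log2 difference of -1.37 ± 0.51. Without wild type control 3 the differences of Irf7 and Usp18 were -0.82 and -0.55, and that of Stat2 was -0.02.

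The interferon-stimulated list held 3 immunity-related GTPases, a family that takes part in defence against intracellular pathogens. In all 3 the groups did not overlap, with Tmem173-/- lower, as in 4.08% of all tested genes. Family members outside the list are not described here. Ifi47 was at 149, 172 and 268 CPM in the wild type and at 130, 125 and 116 CPM in the Tmem173-/- controls. Igtp was at 36.7, 38.8 and 56.1 CPM against 30.4, 33.2 and 31.1 CPM, and Irgm1 was at 113, 111 and 151 CPM against 91.8, 93.4 and 103 CPM. Wild type control 3 was the highest library in all 3 genes, and the Tmem173-/- libraries lay close together. Their log2 differences were -0.67 ± 0.17, -0.47 ± 0.13 and -0.38 ± 0.11, or -0.38, -0.26 and -0.23 without wild type control 3. The most abundant genes of the list, Ly6e and Sp100, had differences of -0.05 ± 0.10 and -0.17 ± 0.13.

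The core of the interferon-stimulated response element, GAAA followed by any 2 bases and GAAA, is a sequence through which interferon signalling acts. Stretches of 120 bases before the start sites of 4 genes of the interferon-stimulated list are therefore shown. They end 1 base (Irgm1, Ifi47), 2 bases (Isg15) and 21 bases (Ifit1) before the start site, so as to hold the matches where there are any. They are from RefSeq (GRCm38.p6), written 5′ to 3′ on the gene's strand, with matches to the core on either strand in capitals; overlapping matches run together.
Isg15, chr4:156200820-156200939, minus strand: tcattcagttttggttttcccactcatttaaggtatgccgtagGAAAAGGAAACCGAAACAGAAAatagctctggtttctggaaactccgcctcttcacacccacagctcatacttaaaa
Irgm1, chr11:48871421-48871540, minus strand: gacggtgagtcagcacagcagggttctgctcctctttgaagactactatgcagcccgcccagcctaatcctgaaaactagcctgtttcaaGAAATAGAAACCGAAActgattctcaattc
Ifit1, chr19:34640749-34640868, plus strand: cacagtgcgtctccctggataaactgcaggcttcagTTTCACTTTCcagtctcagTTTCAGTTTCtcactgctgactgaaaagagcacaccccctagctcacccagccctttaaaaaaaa
Ifi47, chr11:49076467-49076586, plus strand: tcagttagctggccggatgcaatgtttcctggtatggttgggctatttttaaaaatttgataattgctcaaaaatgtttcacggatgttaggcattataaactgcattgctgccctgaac
The stretches of Isg15, Irgm1 and Ifit1 hold 3, 2 and 2 matches, and that of Ifi47 holds 0. No match says only that these letters are not in this window. The 4 genes are a selection and do not stand for the list. In the 250 bases before the start site, Irf7 and Oasl1 hold 0 matches, and Igtp and Oas3 hold 1 each. Of the list, 72.4% could be matched to a promoter, which was too few for a share to be given.

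The core was searched on both strands in the 300 bases of each RefSeq promoter, from 250 before to 50 after the start site. Of 27025 genes with such a promoter 3.99% held it in at least 1 promoter. So did 3.98% of the 9330 tested protein-coding genes that could be matched (80.3% of 11621). Of the protein-coding genes lower in Tmem173-/- cells at an unadjusted p under 0.05, 475 of 577 were matched and 46 held the core (9.68%). Leaving out the interferon-stimulated list, 30 of 447 held it (6.71%). The list is not complete, so this is no share for genes without an interferon response. Isg20, Slfn1 and Ifit1bl1, for example, are outside the list and were lower at that p. After cGAMP their log2 differences were -3.56, -3.98 and -3.09. For the genes that were higher, 78.4% could be matched, which was too few for a share to be given.

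The lists for DNA sensing and for interferon receptors and signalling had medians close to 0. Of 28 tested genes for STING signalling and cytosolic DNA sensing, 13 were higher and 15 lower, and the median was -0.01. At an unadjusted p under 0.05, 0 were higher and 2 lower (7.14%), against 1.98% and 4.39% of all tested genes. With libraries scaled by total counts, which moved the median of all genes from -0.01 to 0.04, 9 of the 28 were lower and the median was 0.04. The 2 were Ifi204, a DNA-binding protein of the HIN-200 family, and Rnaseh2b, a subunit of RNase H2. Ifi204 was barely counted, with 10, 2 and 20 counts in wild type controls 1 to 3 and 0, 2 and 1 in Tmem173-/- controls. Among 22 genes of interferon receptors and signalling the median was 0.01. At an unadjusted p under 0.05, 2 were higher and 4 lower (18.2% lower), both above the shares over all tested genes. The receptor chain Ifnar1 and the kinase Jak2 were the 2 higher ones (0.22 ± 0.10 and 0.26 ± 0.10), and their groups overlapped. The 4 lower ones, Irf9, Irf7 and Usp18 among them, are on the interferon-stimulated list as well. Tlr7, the endosomal receptor for single-stranded RNA, was at 60.5, 68.5 and 95.3 CPM in the wild type and at 45.8, 51.7 and 58.8 CPM in the Tmem173-/- controls. All wild type libraries were above all Tmem173-/- libraries, with a log2 difference of -0.52 ± 0.14, or -0.31 in the fit that left it smallest, that without wild type control 3.

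Genes of MHC class I presentation lay slightly lower. Of 23 tested genes 22 had a lower mean, against 51.3% of all tested genes, and 7 were lower at an unadjusted p under 0.05, against 4.39%. The median log2 difference was -0.13, and it was -0.28 without Tmem173-/- control 1, -0.22 without wild type control 2 and -0.10 without wild type control 3. With libraries scaled by total counts alone, 17 of 23 were lower. The 7 were the immunoproteasome subunits Psmb8, Psmb9 and Psmb10, the proteasome activators Psme1 and Psme2, and the non-classical class I genes H2-T23 and H2-T24. Psmb10 was at 71.4, 80.8 and 96.8 CPM for wild type controls 1 to 3 and at 70.8, 69.8 and 64.6 CPM in Tmem173-/- controls 1 to 3. Its groups did not overlap, and the log2 difference was -0.28 ± 0.11. The class I heavy chain H2-K1 and the light chain B2m had differences of -0.07 ± 0.14 and -0.19 ± 0.15. Of 16 MHC class II genes 9 were higher and 7 lower, 0 at an unadjusted p under 0.05, with a median of 0.02 that was -0.11 without wild type control 1; the invariant chain Cd74 had 0.09 ± 0.12.

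B cell identity and antigen receptor signalling genes leaned the other way. Of 37 tested genes 32 had a higher mean in Tmem173-/- cells, against 48.7% of all tested genes, and the median was 0.10, or 0.05 without Tmem173-/- control 3 and 0.15 without Tmem173-/- control 1. At an unadjusted p under 0.05, 2 were higher, against 1.98% of all tested genes: the transcription factors Spib and Foxo1. Spib was at 479, 493 and 453 CPM in the wild type and at 517, 548 and 554 CPM in the Tmem173-/- controls, so that the groups did not overlap, and the log2 difference was 0.18 ± 0.08. Ighd, the heavy chain of surface IgD, had 0.14 ± 0.13, and Fcmr, the IgM Fc receptor, 0.08 ± 0.11. The median was 0.10 for 17 follicular B cell genes (0.03 without wild type control 1, 0.21 without wild type control 2) and 0.04 for 21 marginal zone B cell genes (0.13 without Tmem173-/- control 2). In 4 of the 21 marginal zone genes the Tmem173-/- libraries lay above all wild type libraries (5.01% of all tested genes), among them Notch2, the receptor that directs marginal zone fate, and Dtx1, its target. Dtx1 was at 191, 191 and 191 CPM in the wild type and at 222, 205 and 228 CPM in the Tmem173-/- controls, a log2 difference of 0.19 ± 0.08.

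Activation genes were close to even. The list for activation and costimulation had 23 tested genes, 10 higher and 13 lower, with a median of -0.01, or 0.04 under scaling by total counts. Cd86, a costimulatory ligand for T cells, was at 76.8, 82.9 and 104 CPM in the wild type and at 74.3, 68.3 and 63.3 CPM in the Tmem173-/- controls, a log2 difference of -0.36 ± 0.12. Egr1, an immediate early transcription factor, was at 120, 114 and 112 CPM in the wild type. It was at 145, 135 and 134 CPM in the Tmem173-/- controls, a difference of 0.26 ± 0.07. In Cd86 and Egr1 the groups did not overlap. Egr1 lies on chromosome 18 at 34859823 to 34864984, within 5 Mb of Tmem173. Whether its difference goes with that position was not tested. The median was 0.05 over 24 NF-kB genes, of which 0 had an unadjusted p under 0.05 in either direction, and 0.06 over 19 cytokines and chemokines, of which 0 did; the cytokine median was negative without wild type control 3 (-0.07) and without Tmem173-/- control 1 (-0.12). Atf3, a stress-induced transcription factor, was low throughout, at 2.24, 1.83 and 2.37 CPM in the wild type and at 0.92, 1.58 and 0.91 CPM in the Tmem173-/- controls, without overlap.

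Respiratory chain and ribosomal protein genes were highest in wild type control 3. All 41 nuclear genes of the respiratory chain had a lower mean in Tmem173-/- cells (51.3% of all tested genes did), with a median of -0.24. At an unadjusted p under 0.05, 13 of them were lower (31.7%), against 4.39% of all tested genes. Of 51 cytosolic ribosomal protein genes, 3 were lower at that p (5.88%), near the share over all tested genes. In all, 50 of the 51 had a lower mean, also with a median of -0.24. The exception was Rpl12, which was low in wild type control 2. Wild type control 3 was the highest of the 6 libraries in 39 of the 41 and in 50 of the 51 genes. Without it the medians were -0.10 and -0.09, and without Tmem173-/- control 1 both were -0.36. Uqcrq, a subunit of complex III, was at 144, 125 and 175 CPM in the wild type and at 144, 93.0 and 82.2 CPM in the Tmem173-/- controls, so that Tmem173-/- control 1 lay within the wild type range. Glycolysis genes had a median of -0.16 (18 of 20 lower), which was -0.10 without wild type control 1 or 3 and -0.25 without wild type control 2, with Gapdh at -0.14 ± 0.14.

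Transcripts encoded by mitochondrial DNA took the opposite sign, with 10 of 13 higher and a median of 0.13. mt-Co1, a subunit of complex IV, had a difference of 0.17 ± 0.12 with groups that did not overlap. Mitochondrial transcripts made up 2.03% ± 0.0619 of counts in Tmem173-/- controls and 1.75% ± 0.155 in wild type controls (SD, n = 3; exact two-sided permutation p = 0.1, the smallest that 3 against 3 libraries allow). All Tmem173-/- libraries were above all wild type libraries, and wild type control 2, which lacked mitochondrial ribosomal RNA, was not the lowest of them. The immunoglobulin share was 1.06% ± 0.0301 and 1.06% ± 0.0623 (exact permutation p = 0.9).

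Other programs had medians near 0. Unfolded protein response genes had a median of -0.09 (21 of 26 lower, or 16 when scaled by total counts), which was -0.03 without wild type control 3 and -0.17 without Tmem173-/- control 1. Immunoglobulin constant regions had -0.11 (9 of 11 lower), which was -0.20 without wild type control 1 and -0.05 without Tmem173-/- control 3. Cell cycle genes had -0.05, which was -0.15 without wild type control 2 and 0.07 without wild type control 1; the proliferation gene Pcna had -0.21 ± 0.10. For p53 targets and apoptosis the median was -0.03, for plasma cell differentiation -0.05, for autophagy and lysosome -0.05 and for cholesterol synthesis -0.03. Scaled by total counts, the medians of cholesterol synthesis, plasma cell differentiation, p53 targets and autophagy genes were positive (0.02, 0.01, 0.03 and 0.00). Migration receptors had 0.09, immature and transitional B cell genes 0.10, immediate early and stress genes 0.07, B-1 cell genes 0.01, and atypical and memory B cell genes 0.08; the last 2 were negative without Tmem173-/- control 1 (-0.12 and -0.08).

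Most of these medians near 0 moved by more than 1.5 times when 1 control library was left out, as the bars of the plot of list medians show.

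**Figure D3:**
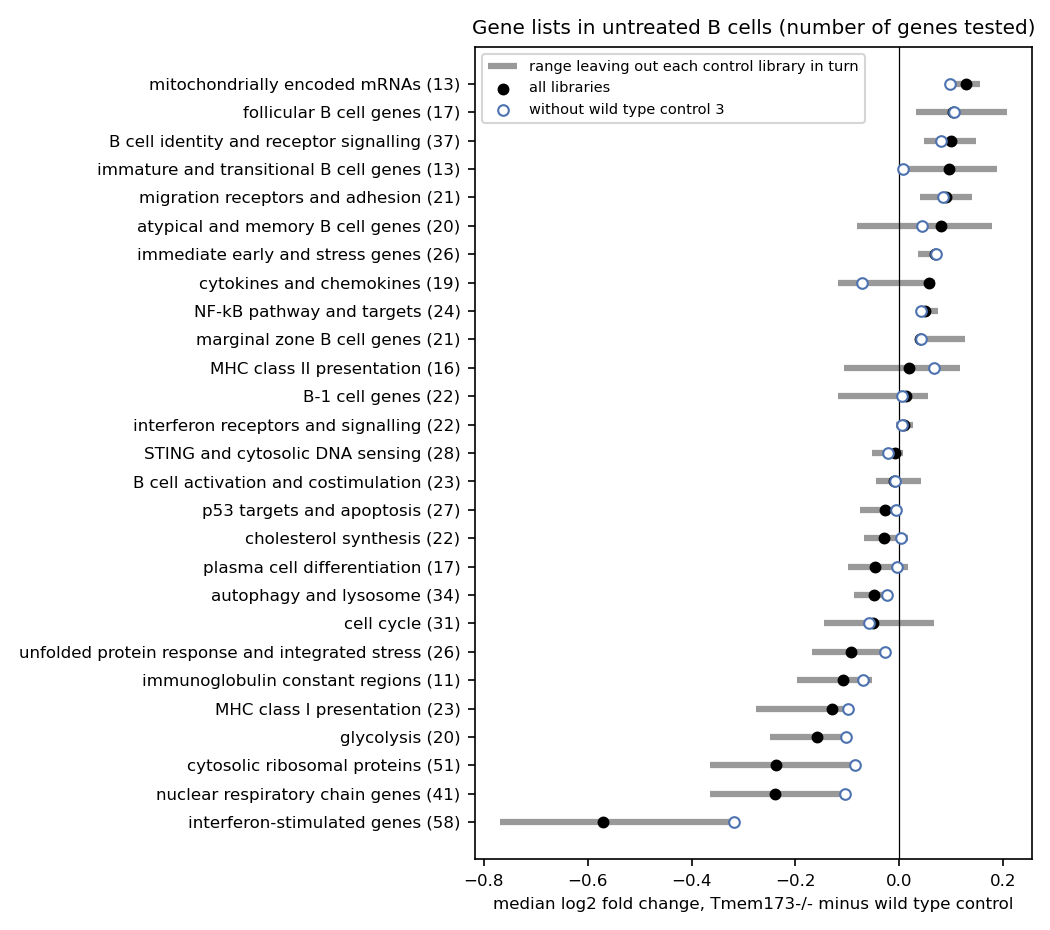
Median log2 difference, Tmem173-/- minus wild type control, of each pathway list (filled points), without wild type control 3 (open points), and the range when each of the 6 control libraries is left out (bars). Of the lists drawn, interferon-stimulated genes stand lowest, at -0.57 with a range of -0.77 to -0.32.

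By the smallest p among genes whose groups did not overlap and whose higher group had a mean of at least 5 CPM, 5 genes were taken in each direction; none passed the adjusted threshold, each having an adjusted p of 0.728 in edgeR. The higher ones were Zfp341, Tmem267, Suox, Pard3b and Sema5a. Zfp341, a zinc finger activator of Stat3 transcription on chromosome 2 (154613297 to 154646821), was at 10.1, 7.99 and 7.84 CPM for wild type controls 1 to 3 and at 13.7, 26.9 and 29.9 CPM in Tmem173-/- controls 1 to 3. Tmem173-/- control 1 lay closer to the wild type libraries than to its own group, and the log2 difference was 1.44 ± 0.29. Sema5a, a guidance semaphorin, was at 6.84, 6.44 and 5.97 CPM in the wild type and at 12.1, 10.6 and 11.4 CPM in the Tmem173-/- controls. These groups were tight and well apart, with a difference of 0.82 ± 0.21. DESeq2 called both (adjusted p = 5.2e-04 and 0.0139), as well as Tmem267 (0.0139) and Nav2 (0.0457), a gene outside the naming rule.

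Tmem267, whose levels were low, was at 3.06, 1.44 and 3.50 CPM in the wild type and at 5.62, 5.85 and 7.33 CPM in the Tmem173-/- controls (1.23 ± 0.26). Suox, the mitochondrial sulfite oxidase, was at 22.1, 18.1 and 20.6 CPM against 28.0, 27.2 and 29.2 CPM (0.47 ± 0.12). Pard3b, a relative of the cell polarity scaffold Pard3, was at 5.02, 4.15 and 3.57 CPM against 5.56, 8.03 and 8.61 CPM (0.80 ± 0.20). As for Zfp341, Tmem173-/- control 1 was the nearest to the wild type for Pard3b.

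The lower ones were Apoo, Stx8, Gins2, Tlr7 and Ifi47, the last 2 given above. Apoo, a subunit of the complex that shapes mitochondrial cristae, was at 9.12, 8.76 and 9.61 CPM in the wild type and at 6.80, 6.28 and 5.36 CPM in the Tmem173-/- controls (-0.57 ± 0.14). Stx8, an endosomal SNARE, was at 28.2, 28.0 and 31.3 CPM against 24.4, 23.4 and 22.1 CPM (-0.32 ± 0.09). Gins2, a subunit of the replicative helicase, was at 10.4, 9.61 and 11.8 CPM against 8.37, 7.66 and 5.44 CPM (-0.57 ± 0.16). For Apoo and Stx8 the wild type libraries lay close together, and wild type control 3 was the highest by a small margin.

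**Figure D4:**
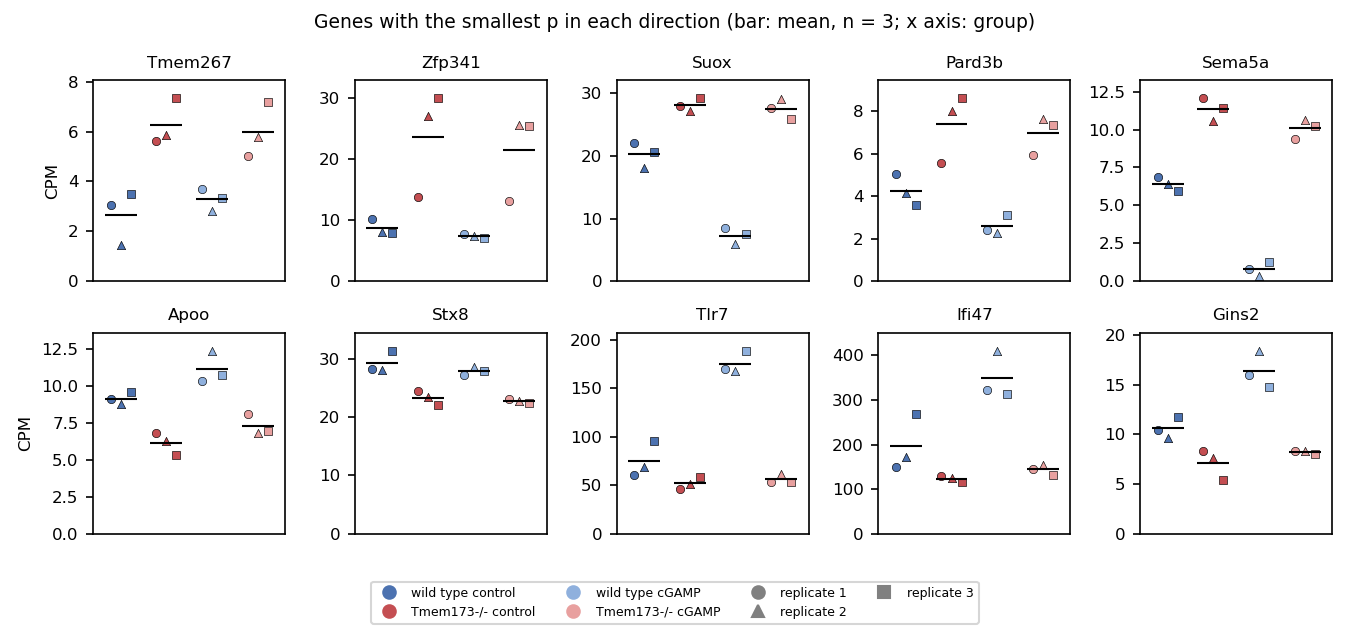
CPM in all 12 libraries (points, shaped by replicate number; bars are means, n = 3) for the 5 higher and 5 lower genes with the smallest p in controls. In each gene the Tmem173-/- controls lie on 1 side of the wild type controls, and all 10 also differ in that direction after cGAMP.

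The same genotypes were also compared in the libraries treated with cGAMP, which may come from the same mice. Same-numbered control and cGAMP libraries correlated in their deviations from the group means, at 0.39, 0.27 and 0.07 in the wild type and 0.47, 0.16 and 0.28 in Tmem173-/- cells, so shared direction is given as a description. After cGAMP edgeR called 3598 genes higher (24.9%) and 3396 lower (23.5%) in Tmem173-/- than in wild type cells. All 10 named genes were called in the direction they had in controls, for example Stx8 at -0.32 in controls and -0.30 after cGAMP, Apoo at -0.57 and -0.61, Zfp341 at 1.44 and 1.53, and Sema5a at 0.82 and 3.68. Of the 635 genes lower in controls at an unadjusted p under 0.05, 307 (48.3%) were called lower after cGAMP, which is 9.04% of the genes called lower there, and 67 (10.6%) were called higher. Of the 286 higher in controls, 154 (53.8%) were called higher after cGAMP, which is 4.28% of that list, and 25 (8.74%) were called lower. Of the 58 interferon-stimulated genes, 56 were called lower after cGAMP and 1 (Ly6e) higher, with a median of -2.47. Their mean log2(CPM + 1) was 7.54, 7.74 and 7.47 in wild type cells with cGAMP and 5.00, 4.91 and 4.80 in Tmem173-/- cells with cGAMP. The latter lay at the upper end of the untreated Tmem173-/- libraries, replicate 1 slightly above it, and below 2 of the 3 untreated wild type libraries.

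A few genes differed between libraries of 1 genotype more than between genotypes; they were singled out after their values had been seen. Ctnna1 (alpha-catenin, which links cadherins to actin) lies on chromosome 18 at 35118888 to 35254773, near Tmem173. Its levels were 92.8, 73.2 and 79.0 CPM for wild type controls 1 to 3 and 68.5, 10.2 and 11.2 CPM for Tmem173-/- controls 1 to 3, and after cGAMP at 68.5, 10.95 and 11.2 CPM in Tmem173-/- cells. Tmem173-/- control 1 was thus near the wild type and the other 2 far below it, in both treatments alike. Vangl2, a planar polarity protein on chromosome 1, showed the same arrangement at 5.49, 1.88 and 1.71 CPM in Tmem173-/- controls, against 7.34, 5.60 and 6.50 CPM in the wild type.

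Within 5 Mb of Tmem173, 97 genes were tested, with a median of -0.04. At an unadjusted p under 0.05, 4 were higher and 7 lower, where 1.98% and 4.39% of all tested genes were. Egr1, given above, was among the higher ones. At the end of the X and Y chromosomes, Mid1, a ubiquitin ligase that binds microtubules, was at 1.75, 1.37 and 1.20 CPM in the wild type and at 5.95, 6.05 and 8.87 CPM in the Tmem173-/- controls, and the predicted gene Gm47283 was at 2.89, 0 and 0 CPM against 16.4, 16.4 and 27.1 CPM. After cGAMP, wild type replicate 1 had 4.004 CPM of Mid1 and 14.1 CPM of Gm47283, against 0.45 and 0.21 CPM and 0 and 0 CPM in wild type replicates 2 and 3. In these genes the 2 libraries numbered wild type replicate 1 thus differed from each other. They were alike in S100a9, with 107 counts in the control and 217 after cGAMP, and at most 13 in any other library. The mean log2(CPM + 1) of the tested T cell markers was 2.15 and 2.45 in these 2 libraries, and at most 1.73 in the others. Whether the 2 libraries came from 1 mouse is not given in the labels and was not tested.

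**Figure D5:**
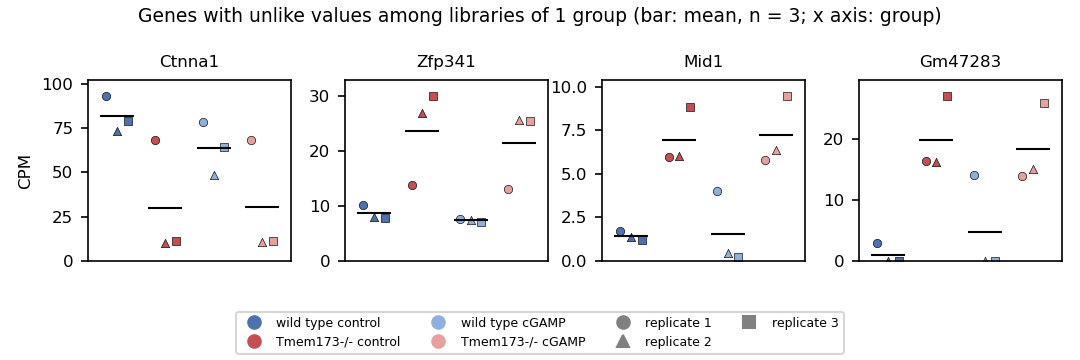
CPM in all 12 libraries (points, shaped by replicate number; bars are means, n = 3) for Ctnna1, Zfp341, Mid1 and Gm47283. Tmem173-/- replicate 1 is apart from replicates 2 and 3 in Ctnna1 and Zfp341, and wild type replicate 1 after cGAMP is apart in Mid1 and Gm47283.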

How the data were processed

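The authors deposited a whole-number count and an FPKM value for each gene and library. The tools named in the submitters' processing notes are fastp, STAR and featureCounts, with GRCm38 (mm10) as the genome; settings, strandedness and annotation release are not given in the sources used here. Without strand, a gene and an antisense partner cannot be told apart. Counts were tested in R 4.3.3 with edgeR 4.0.16 (filterByExpr by group, TMM, robust quasi-likelihood F test, two-sided, 1 mean for each of 4 groups over 12 libraries), with Benjamini-Hochberg adjustment over 14473 genes and a threshold of 0.05. A standard error is the log2 fold change over the square root of F. Intervals at 95% came from limma-voom (limma 3.58.1), and counting depth alone was 26490593 to 31417833 per control library. The deposited FPKM values were used in alternatives only, as log2 of the value plus 1 or 0.1.

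Besides Tmem173, the genes named are the 5 of smallest p in each direction with at least 5 CPM on average in whichever group was higher, non-overlapping groups and a symbol that is not a clone name, and from each list the members past the threshold or else the 2 most abundant, of which the text gives a selection; others were chosen after their values were seen. Members and lists were chosen with earlier results of these data known, so they are no independent support. DESeq2 1.42.0, other scalings, filters, a replicate block and leaving out each library were alternatives; leaving out both replicate 1 libraries of a genotype was added after seeing the data. The scripts were tested on simulated data. Some items are not reported here.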

Additional observations from a re-analysis of the deposited data

Results flagged for a closer look

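Among Tmem173 and the 10 genes of smallest p in controls, the genotype difference after cGAMP differed from that in untreated cells for 4 in edgeR's interaction test, which treats all libraries as unpaired and called 4569 of 14473 genes (31.6%) at an adjusted p under 0.05. The difference of differences on the log2 scale was 2.86 for Sema5a (adjusted p = 1.8e-05) and 1.45 for Suox (adjusted p = 1.7e-05), both further above wild type after cGAMP. It was 1.02 for Tmem173 (adjusted p = 6.4e-05), whose levels overlapped in controls and were higher in all 3 Tmem173-/- libraries after cGAMP. It was -1.12 for Tlr7 (adjusted p = 5.6e-04), which lay further below wild type after cGAMP. Members of the gene lists described in the report passed the same test too, for example Isg15 (-3.28, adjusted p = 0.0108), Bst2 (-2.09, adjusted p = 0.00393), Fcmr (1.56, adjusted p = 2.5e-06) and Egr1 (0.60, adjusted p = 4.0e-04). The cause was not tested.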

How the results depend on the processing

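No gene passed in either direction with median-of-ratios scaling, library totals, limma-voom, either FPKM fit, a filter of at least 1 CPM in 3 libraries, the 6 control libraries alone, or either replicate block. DESeq2 called 4 genes higher. Without a filter 32 were higher and 119 lower; the median prior degrees of freedom was then infinite, against 8.06. Leaving out 1 control library gave 0 to 1 higher and 0 to 1 lower: Zfp341 without Tmem173-/- control 1, and Oas1a without wild type control 1. Without both wild type replicate 1 libraries 4 were higher and 1 lower, and without both Tmem173-/- replicate 1 libraries 1 was higher and 4 lower.

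The number higher at an unadjusted p under 0.05 was 481 with library totals, 445 with log2(FPKM + 1), 580 without a filter, 783 without both Tmem173-/- replicate 1 libraries and 148 to 787 when 1 control library was left out. The number lower was 380, 406, 1111, 1433 and 178 to 1453 in the same fits, 408 with log2(FPKM + 0.1) and 310 in the 6 control libraries alone. The lowest counts were those without wild type control 3 (148 and 178) and the highest those without Tmem173-/- control 1 (787 and 1453). Library totals and the FPKM fits put 40.8%, 40.5% and 40.2% of genes below 0, against 51.3%.

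Of the interferon-stimulated genes, 20 to 48 were lower at an unadjusted p under 0.05 when 1 control library was left out, and 16 without both Tmem173-/- replicate 1 libraries. The number below 0 ranged from 55 to 58 and the median from -0.77 to -0.32. Tmem173, at -0.04, was at 0.0109 with library totals, 0.0042 and 0.0041 with log2(FPKM + 1) and log2(FPKM + 0.1), and 0.0568 without both Tmem173-/- replicate 1 libraries; leaving out 1 control library gave -0.125 (without Tmem173-/- control 3) to 0.0567 (without Tmem173-/- control 1).

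Same-numbered wild type and Tmem173-/- controls correlated at 0.11, 0.26 and -0.33 in their deviations from the group means. Differently numbered ones correlated at -0.43 to 0.37. The labels do not say whether same-numbered controls share more than a number, and 3 libraries per group cannot settle it. With the replicate block, 379 genes were higher and 712 lower at an unadjusted p under 0.05 over 12 libraries, and 171 and 247 over the 6 control libraries. The cause of these shifts was not tested. Genes below 1 CPM have the least power here.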
